A study of Arabidopsis thaliana with 18 samples.

Results

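A set of 97 probe sets had a lower level after 1 h of low R:FR, a ratio of red to far-red light like that under a leaf canopy, in each of 3 Arabidopsis thaliana genotypes. They are 97 of 22746 probe sets, of which 15619 had a mean level above the minimum of 5 that the choice required. RNA came from whole seedlings aged 7 days and kept at 22 °C, where the standing white light was mixed from red (13 µmol m-2 s-1) and blue (1.23 µmol m-2 s-1). Arrays labelled SH hold seedlings given 1 h of low R:FR (a ratio of 0.7, reached by adding far-red of 20.2 µmol m-2 s-1), and arrays labelled Wc hold seedlings left in the white light. The 6 groups, with 3 arrays each, were sav3-2 SH, sav3-2 Wc, sav1-1 SH, sav1-1 Wc, Col-0 SH and Col-0 Wc. Both mutants are in the Col-0 background, Col-0 is the wild type, and each mutant is represented by 1 allele. SAV3 is the auxin synthesis enzyme TAA1, which no probe set names here, so the mutation was not checked on the arrays. Which gene sav1-1 changes was not stated in the labels.

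Plants read the ratio of red to far-red light through phytochromes, which far-red light returns to their inactive form. Phytochrome-interacting factors (PIFs), basic helix-loop-helix transcription factors, then accumulate in active form and switch on genes of auxin synthesis and elongation. The response leads to longer stems and petioles within hours, and the same light also lowers the transcripts of other genes.

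The members were chosen by their measured change, so that change is given as a description, with no test. On quantile-normalized log2(intensity + 16), which is the scale of every level and difference here, the mean of the SH arrays minus the mean of the Wc arrays was -0.25 or less in each genotype and -0.45 or less on average over the 3. The thresholds were met by 100 probe sets, and AT3G44450, UGT78D1 and UGT78D2 were set aside by name, leaving 97. Just inside the average threshold lay values from -0.4533 to -0.4503 (5 probe sets), and just outside it values from -0.4491 to -0.4436 (5 probe sets). In all, 124 probe sets met every condition but the average. Of the members, 49 name 1 gene and stand for 48 genes, since AT5G54130 is on a pair of probe sets, 1 names several genes and 47 are unnamed here. All 97 passed the filter on low values, and their mean levels ran from 5.17 to 10.74 with a median of 7.21, beside 6.71 over the 17125 probe sets tested. In RNA from whole seedlings, fewer cells of a type and less RNA per cell cannot be told apart.

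Deposited intensity medians lay between 34.4 and 65.6 per array, and the correlation of arrays within a group, taken over probe sets, lay between 0.973 and 0.987. Among shoot transcripts, the chlorophyll-binding genes LHCB4.1 and LHCB4.2 had a median level between 12.60 and 12.86 on every array. Of 7 root markers listed 3 were measured. PYK10 averaged 12.35, whereas EXPA7 and EXPA18 averaged 5.78 and 5.94, below the median of 6.71 over all probe sets tested. None of these shoot and root genes passed the test for low R:FR in any genotype. Their difference farthest from 0 was 0.19 for EXPA7 in sav1-1. No seed storage gene of the 5 listed was measured. The labels call the arrays independent biological replicates without naming separate growths, so p-values measure the spread between these arrays.

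The median change of the members was -0.54 in sav3-2 (range -1.26 to -0.26), -0.61 in sav1-1 (range -1.11 to -0.31) and -0.55 in Col-0 (range -1.25 to -0.28). The median over all probe sets tested was -0.01 in each genotype. Averaged over genotypes, the deepest member stood at -1.002, an SH level of 0.50 times the Wc level, and the least deep at -0.45. Turned upward, the same thresholds and exclusions chose 254 probe sets. The members' mean per array ran from 7.19 to 7.31 on sav3-2 SH arrays, against 7.71 to 7.84 on sav3-2 Wc arrays. It ran from 6.98 to 7.06 on sav1-1 SH arrays, against 7.60 to 7.67 on sav1-1 Wc arrays. On Col-0 SH arrays the mean ran from 7.07 to 7.17, against 7.67 to 7.70 on Col-0 Wc arrays. No SH array reached the lowest Wc array, which the choice of the members largely fixed. The mean over all probe sets tested, which quantile normalization keeps nearly equal between arrays, stayed between 6.92 and 6.94. That step also draws the median change over all probe sets towards 0. On the values as deposited this median was 0.11 in sav3-2, 0.06 in sav1-1 and -0.16 in Col-0.

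**Figure D1:**
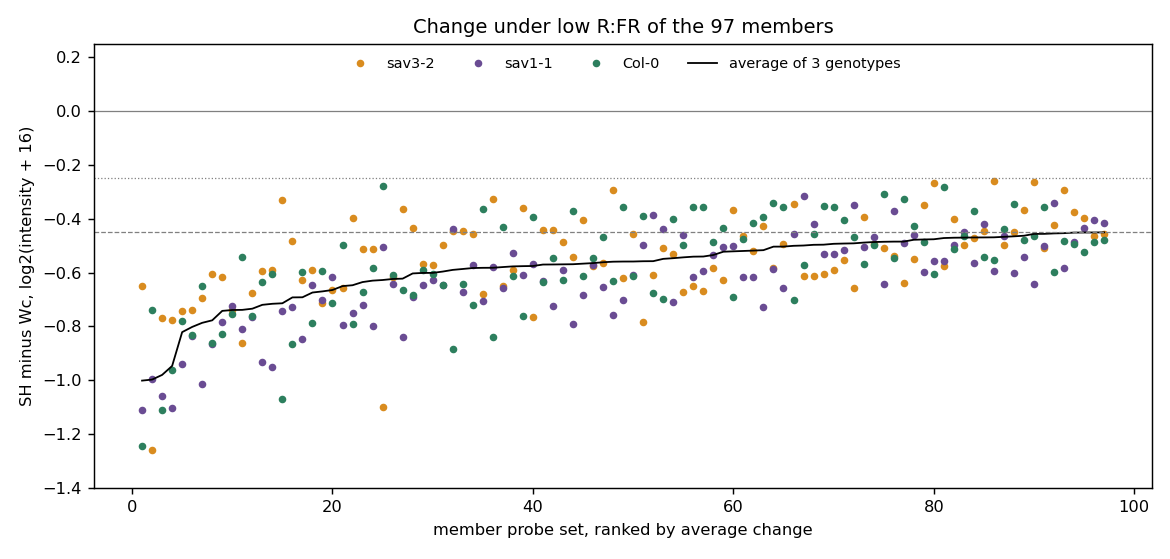
Change under low R:FR (SH minus Wc, log2 scale, vertical axis) of the 97 members, ranked by their average (horizontal axis). Points are the 3 genotypes, the line is their average, and the dotted and dashed lines mark the thresholds of -0.25 in each genotype and -0.45 on average. The averages run from -1.002 to -0.45.

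**Figure D2:**
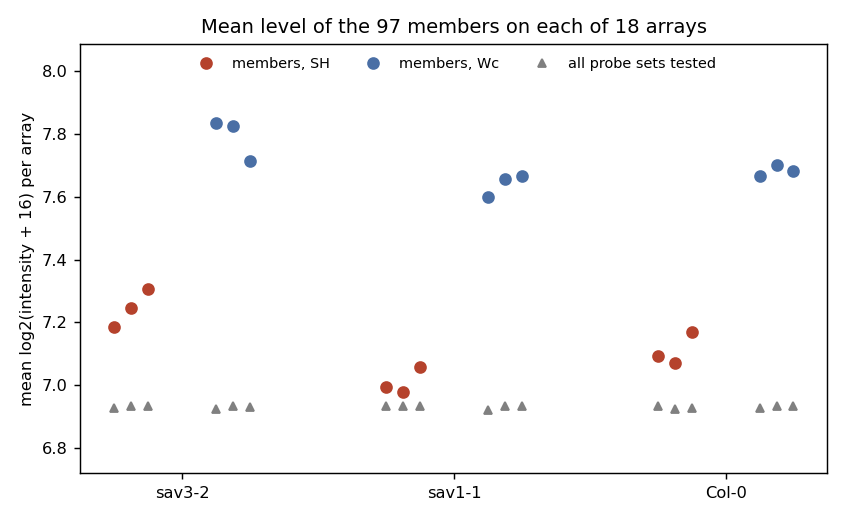
Mean level of the 97 members on each of the 18 arrays (log2 scale, vertical axis, not starting at 0), with SH arrays to the left of Wc arrays in each genotype. Triangles are the mean of all probe sets tested, which quantile normalization keeps nearly equal and which stayed between 6.92 and 6.94. All SH arrays lie below all Wc arrays for the members, which their choice largely fixed.

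Here and below, a percentage of all in brackets is the share of all probe sets, members or not, for which the same held. All 3 SH arrays lay below all 3 Wc arrays for 63 of 97 members in sav3-2 (6.27% of all probe sets tested), for 83 in sav1-1 (7.68% of all) and for 66 in Col-0 (6.04% of all). In all 3 genotypes at once they did so for 43 members (0.572% of all). limma called 23 members lower in sav3-2 (0.175% of all probe sets), 46 in sav1-1 (0.467%) and 24 in Col-0 (0.175%), at a Benjamini-Hochberg adjusted p under 0.05. The choice used these differences, so nothing is read from those counts. The 9 members called in all 3 genotypes (0.0526% of all) include AT1G51805, AT1G54820, AT1G74940 and AT1G15260 and 5 that are unnamed here, and 42 members were called in none.

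The same change was then read on arrays whose differences did not enter that round of choice. The arrays left out are not fully separate. All 18 arrays were normalized together, and the thresholds were set with earlier results of these data known. Probe sets were chosen by the same thresholds on the arrays of a pair of replicate numbers, and the change was taken from the 3 SH and 3 Wc arrays of the number left out. With number 1 left out, 82 of 109 probe sets (75.2%) were below 0 in all 3 genotypes on its arrays, beside 19.3% of all probe sets with a mean above 5. With number 2 left out they were 81 of 92 (88.0%, beside 19.9%), and with number 3 left out 84 of 133 (63.2%, beside 17.9%). A change of -0.25 or less in all 3 genotypes was met by 51.4%, 64.1% and 33.8% of those chosen, beside 2.2%, 2.64% and 1.53% of all, in the same order of the number left out. On the arrays left out, the median average change was -0.44, -0.53 and -0.35. The median change was nearest to 0 on the arrays numbered 3. On the values as deposited, before normalization, the share below 0 in all 3 genotypes was 34.2% of 196 with number 1 left out (beside 2.02% of all), all of 17 with number 2 left out (beside 60.4%) and 42.3% of 130 with number 3 left out (beside 6.57%). Of the 97 members, 49 were chosen whichever number was left out, 35 in 2 of the 3 choices and 13 in 1, among the last SNZ, AT3G62550, AT2G27420 and AT4G33040.

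**Figure D3:**
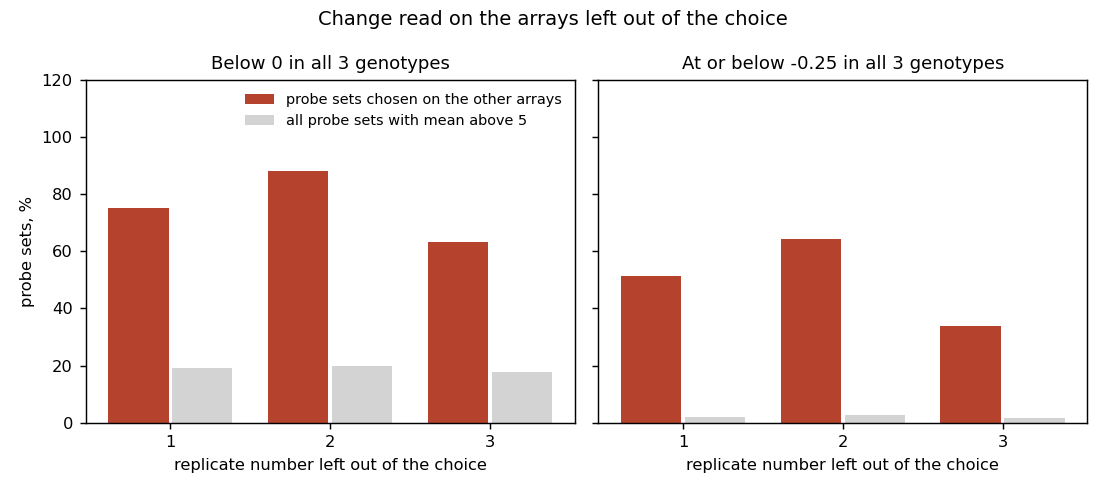
Share of probe sets (%, vertical axis from 0) that were below 0 (left) or at -0.25 or less (right) in all 3 genotypes on the arrays of the replicate number left out of the choice (horizontal axis). Red bars are probe sets chosen on the other arrays and grey bars all probe sets with a mean above 5; the red bars on the left stand at 75.2%, 88.0% and 63.2%.

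Within replicate numbers, the median change of the 97 members was -0.63, -0.59 and -0.44 in sav3-2 for numbers 1, 2 and 3, -0.64, -0.66 and -0.57 in sav1-1 and -0.56, -0.62 and -0.50 in Col-0. It was nearest to 0 on the arrays numbered 3 in each genotype. The change was below 0 in all 9 pairs of same-numbered arrays for 76 members (2.45% of all probe sets with a mean above 5). The choice used these arrays, so that count and these medians follow in large part from the choice.

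Kinases and a phosphatase were among the members. AT1G51805 encodes a leucine-rich repeat receptor-like kinase. AT1G51805 read 7.27, 7.65 and 7.46 in the sav3-2 SH arrays, against 8.27, 8.38 and 8.06 in the sav3-2 Wc arrays. AT1G51805 in sav1-1 read 6.88, 7.15 and 6.75 under SH and 7.89, 8.31 and 7.88 under Wc. AT1G51805 in Col-0 read 7.52, 7.43 and 7.54 under SH and 8.57, 8.54 and 8.27 under Wc. Its SH and Wc arrays did not overlap in any genotype, and the changes were -0.78, -1.10 and -0.96 in sav3-2, sav1-1 and Col-0 (SE 0.14 each). AT1G54820 is annotated as a protein kinase. AT1G54820 read 7.58, 7.72 and 7.56 in the sav3-2 SH arrays, against 8.12, 8.09 and 8.16 in the sav3-2 Wc arrays. AT1G54820 in sav1-1 read 7.27, 7.31 and 7.12 under SH and 7.95, 7.91 and 7.78 under Wc. AT1G54820 in Col-0 read 7.46, 7.51 and 7.33 under SH and 8.22, 8.13 and 7.88 under Wc. Here too no SH array reached a Wc array, and the changes were -0.50, -0.65 and -0.64 in sav3-2, sav1-1 and Col-0 (SE 0.11 each). AT1G77280, a kinase with a domain of the universal stress protein type, averaged 5.69 under SH and 6.30 under Wc in sav3-2, 5.73 and 6.11 in sav1-1, and 5.59 and 6.27 in Col-0, with changes of -0.61, -0.39 and -0.68 (SE 0.14). The change of the leucine-rich repeat protein gene AT1G33600 averaged -0.49 over the genotypes and that of the protein phosphatase gene AT3G16560 -0.52.

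A few members act in light responses or belong to a family with a gene that does. AT1G18810 is PKS3 of the PHYTOCHROME KINASE SUBSTRATE family, membrane-associated proteins that work with phototropins and phytochromes in bending and growth. AT1G18810 read 7.23, 7.71 and 7.44 in the sav3-2 SH arrays, against 8.33, 8.01 and 7.51 in the sav3-2 Wc arrays. AT1G18810 in sav1-1 read 6.83, 6.81 and 7.06 under SH and 7.47, 7.49 and 7.52 under Wc. AT1G18810 in Col-0 read 7.22, 7.17 and 7.21 under SH and 7.90, 7.90 and 7.68 under Wc. The arrays of both lights were apart in sav1-1 and Col-0, and in sav3-2 the Wc array numbered 3 lay below the SH array numbered 2. The changes were -0.49, -0.59 and -0.63 in sav3-2, sav1-1 and Col-0 (SE 0.16 each). AT3G22104 belongs to the NPH3 family, named for a partner of phototropin in phototropism. AT3G22104 read 6.55, 6.97 and 6.73 in the sav3-2 SH arrays, against 7.01, 7.27 and 7.17 in the sav3-2 Wc arrays. AT3G22104 in sav1-1 read 6.33, 6.36 and 6.34 under SH and 7.07, 6.76 and 6.70 under Wc. AT3G22104 in Col-0 read 6.36, 6.49 and 6.61 under SH and 7.06, 7.11 and 6.82 under Wc. Within each genotype no SH array reached a Wc array, with changes of -0.40, -0.50 and -0.51 in sav3-2, sav1-1 and Col-0 (SE 0.13 each). AT1G64500 is THRUMIN1, which bundles actin filaments when chloroplasts move in light. It averaged 7.77 under SH and 8.43 under Wc in sav3-2, 7.69 and 8.29 in sav1-1, and 7.70 and 8.06 in Col-0, with changes of -0.67, -0.60 and -0.36 (SE 0.16), and its lights overlapped in Col-0 alone.

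Among transcription factors, TINY2 is an AP2/ERF factor of the DREB group. TINY2 read 4.78, 4.81 and 5.32 in the sav3-2 SH arrays, against 5.64, 5.72 and 5.52 in the sav3-2 Wc arrays. TINY2 in sav1-1 read 4.91, 4.47 and 4.95 under SH and 5.60, 5.26 and 5.86 under Wc. TINY2 in Col-0 read 5.05, 4.97 and 5.01 under SH and 5.82, 5.44 and 5.25 under Wc. Its SH and Wc arrays were apart in every genotype, although SH levels lay close to the lower end of the scale, where log2(intensity + 16) understates a decrease. The changes of TINY2 were -0.66, -0.80 and -0.50 in sav3-2, sav1-1 and Col-0 (SE 0.20 each). AT1G75710, a C2H2 zinc finger protein, averaged 6.80 under SH and 7.38 under Wc in sav3-2, 6.70 and 7.28 in sav1-1, and 6.70 and 7.24 in Col-0, with changes of -0.58, -0.57 and -0.55 (SE 0.17), so the 3 changes were nearly equal, although its lights overlapped in sav3-2. The change of SNZ, an AP2-type repressor of flowering, averaged -0.52 over the genotypes. That of NAI1, a basic helix-loop-helix factor needed for endoplasmic reticulum bodies, averaged -0.46, with -0.26 in sav3-2, close to the threshold.

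Cell wall proteins were represented by a pectate lyase and an inhibitor. AT4G24780 encodes a pectate lyase, an enzyme that cuts pectin. AT4G24780 read 8.98, 9.21 and 8.996 in the sav3-2 SH arrays, against 9.94, 9.76 and 9.26 in the sav3-2 Wc arrays. AT4G24780 in sav1-1 read 8.55, 8.74 and 8.83 under SH and 9.42, 9.44 and 9.20 under Wc. AT4G24780 in Col-0 read 8.70, 8.74 and 8.71 under SH and 9.79, 9.54 and 9.19 under Wc. The lights did not overlap in any genotype, and the changes were -0.59, -0.64 and -0.79 in sav3-2, sav1-1 and Col-0 (SE 0.15 each). AT5G62360 encodes a protein of the family of invertase and pectin methylesterase inhibitors. AT5G62360 read 6.67, 6.46 and 6.82 in the sav3-2 SH arrays, against 7.83, 7.01 and 7.71 in the sav3-2 Wc arrays. AT5G62360 in sav1-1 read 6.86, 6.45 and 6.20 under SH and 7.74, 7.32 and 6.87 under Wc. AT5G62360 in Col-0 read 7.37, 6.34 and 6.99 under SH and 7.88, 6.61 and 7.84 under Wc. The Col-0 arrays overlapped, since the Wc array numbered 2 read below a pair of SH arrays, whereas each same-numbered SH array was the lower. The changes of AT5G62360 were -0.86, -0.81 and -0.54 in sav3-2, sav1-1 and Col-0 (SE 0.30 each).

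Members also included pairs of genes from the same family. AT1G74940 and AT2G44670 have an FLZ zinc finger, found in plant proteins that bind the energy-sensing kinase SnRK1. AT1G74940 read 6.88, 6.54 and 6.81 in the sav3-2 SH arrays, against 7.27, 7.30 and 7.46 in the sav3-2 Wc arrays. AT1G74940 in sav1-1 read 6.65, 6.44 and 6.24 under SH and 7.38, 7.22 and 7.33 under Wc. AT1G74940 in Col-0 read 6.51, 6.72 and 6.38 under SH and 7.38, 7.29 and 7.52 under Wc. SH and Wc arrays were apart in every genotype, with changes of -0.61, -0.87 and -0.86 in sav3-2, sav1-1 and Col-0 (SE 0.13 each), and the change of AT2G44670 averaged -0.49 over the genotypes. AT1G11700 and AT3G45210 share a domain with the senescence-associated S40 proteins. AT1G11700 read 5.87, 6.16 and 6.23 in the sav3-2 SH arrays, against 6.81, 6.55 and 6.67 in the sav3-2 Wc arrays. AT1G11700 in sav1-1 read 5.26, 5.39 and 5.66 under SH and 6.34, 6.41 and 6.43 under Wc. AT1G11700 in Col-0 read 5.66, 6.001 and 6.25 under SH and 6.27, 6.67 and 6.78 under Wc. The lights were apart in each genotype, by a narrow gap in Col-0, and the changes were -0.59, -0.95 and -0.60 in sav3-2, sav1-1 and Col-0 (SE 0.16 each). AT3G45210 averaged 7.07 under SH and 7.51 under Wc in sav3-2, 6.82 and 7.54 in sav1-1, and 6.71 and 7.25 in Col-0, with changes of -0.44, -0.72 and -0.55 (SE 0.13). Its lights overlapped in sav3-2.

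Enzymes and transporters made up another share of the named members. AT2G39710 encodes an aspartyl protease. AT2G39710 read 5.70, 5.48 and 6.06 in the sav3-2 SH arrays, against 6.24, 6.30 and 6.69 in the sav3-2 Wc arrays. AT2G39710 in sav1-1 read 5.42, 5.44 and 5.92 under SH and 5.74, 6.20 and 6.68 under Wc. AT2G39710 in Col-0 read 5.62, 5.03 and 6.06 under SH and 6.02, 6.16 and 6.66 under Wc. SH and Wc overlapped in sav1-1 and in Col-0, where the array numbered 3 was highest in both lights, and the changes were -0.66, -0.62 and -0.71 in sav3-2, sav1-1 and Col-0 (SE 0.25 each). AT1G64710 is annotated as an alcohol dehydrogenase of the zinc-binding type. AT1G64710 read 7.14, 7.18 and 7.08 in the sav3-2 SH arrays, against 7.86, 7.87 and 7.42 in the sav3-2 Wc arrays. AT1G64710 in sav1-1 read 6.81, 6.42 and 6.87 under SH and 6.88, 7.55 and 7.42 under Wc. AT1G64710 in Col-0 read 7.13, 7.22 and 7.14 under SH and 7.47, 7.75 and 7.30 under Wc. Within each genotype no SH array reached a Wc array, with a narrow gap in sav1-1. The changes were -0.58, -0.59 and -0.34 in sav3-2, sav1-1 and Col-0 (SE 0.17 each).

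AT1G73600, a methyltransferase of phosphocholine synthesis, averaged 7.78 under SH and 8.21 under Wc in sav3-2, 7.54 and 8.23 in sav1-1, and 7.21 and 7.89 in Col-0, with changes of -0.44, -0.69 and -0.68 (SE 0.30). Its arrays overlapped in sav3-2 and Col-0. AT4G19380, a long-chain fatty alcohol oxidase, averaged 6.22 under SH and 6.62 under Wc in sav3-2, 6.13 and 6.81 in sav1-1, and 6.46 and 7.07 in Col-0, with changes of -0.40, -0.68 and -0.61 (SE 0.14), with no overlap in any genotype. AT1G22550, a transporter of the nitrate and peptide transporter family, averaged 6.64 under SH and 7.17 under Wc in sav3-2, 6.43 and 7.14 in sav1-1, and 6.77 and 7.17 in Col-0, with changes of -0.53, -0.71 and -0.40 (SE 0.13). AT5G03380, a protein with a heavy-metal-associated domain, averaged 8.28 under SH and 8.93 under Wc in sav3-2, 8.17 and 8.83 in sav1-1, and 8.30 and 8.73 in Col-0, with changes of -0.65, -0.66 and -0.43 (SE 0.15). For AT1G22550 and AT5G03380 the lights overlapped in Col-0 but not in the mutants. AT1G55960, a lipid-binding protein of the START type, averaged 8.77 under SH and 9.34 under Wc in sav3-2, 8.82 and 9.47 in sav1-1, and 8.93 and 9.40 in Col-0, with changes of -0.56, -0.65 and -0.47 (SE 0.16). AT5G42760, annotated as a carboxyl methyltransferase, averaged 6.60 under SH and 7.25 under Wc in sav3-2, 6.55 and 7.16 in sav1-1, and 6.52 and 6.88 in Col-0, with changes of -0.65, -0.62 and -0.36 (SE 0.26). The lights of AT1G55960 overlapped in sav3-2, and those of AT5G42760 in sav1-1 and Col-0. AT5G41670, a phosphogluconate dehydrogenase of the pentose phosphate pathway, had an average change of -0.45 and lay just inside the threshold.

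Other enzymes and transporters had average changes near the threshold. The oxygenase AT5G59540 stood at -0.50, the hydrolase AT5G38220 at -0.49 and the cysteine protease AT2G27420 at -0.48. The transporter AT4G34950 stood at -0.45. AT3G62550, a universal stress protein, had an average change of -0.49 with an SE of 0.34 in each genotype, so its changes of -0.49, -0.47 and -0.50 are loosely measured, and its lights overlapped in every genotype. The change of AT4G33040, of the glutaredoxin family, averaged -0.47, and that of the BTB-domain protein AT1G63850 averaged -0.46. AT5G54130, annotated as a calcium-binding phosphatase-like protein, was measured by a pair of probe sets with average changes of -0.50 and -0.48. The probe sets of AT5G54130 gave changes of -0.61, -0.42 and -0.46 in sav3-2, sav1-1 and Col-0 (SE 0.20 each) and of -0.64, -0.49 and -0.33 in sav3-2, sav1-1 and Col-0 (SE 0.15 each).

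Some of the deepest decreases were in genes for which no role is given here. AT2G15020 had the largest average decrease, -1.002. AT2G15020 read 6.35, 6.67 and 7.11 in the sav3-2 SH arrays, against 7.25, 7.48 and 7.34 in the sav3-2 Wc arrays. AT2G15020 in sav1-1 read 5.91, 6.15 and 7.08 under SH and 7.18, 7.46 and 7.83 under Wc. AT2G15020 in Col-0 read 5.70, 5.54 and 6.86 under SH and 6.64, 7.29 and 7.91 under Wc. SH and Wc overlapped in Col-0, where the array numbered 3 was highest in both lights, and the changes were -0.65, -1.11 and -1.25 in sav3-2, sav1-1 and Col-0 (SE 0.33 each), a wide SE. AT1G78170 had the widest gap between its 3 changes among the named members. AT1G78170 read 8.07, 8.08 and 8.14 in the sav3-2 SH arrays, against 8.38, 8.27 and 8.63 in the sav3-2 Wc arrays. AT1G78170 in sav1-1 read 7.75, 7.64 and 7.73 under SH and 8.38, 8.36 and 8.61 under Wc. AT1G78170 in Col-0 read 7.52, 7.21 and 7.53 under SH and 8.48, 8.28 and 8.70 under Wc. Its Wc levels were alike in the 3 genotypes while the SH levels were highest in sav3-2 and lowest in Col-0, and the changes were -0.33, -0.74 and -1.07 in sav3-2, sav1-1 and Col-0 (SE 0.13 each).

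AT1G15260 read 8.76, 8.70 and 8.87 in the sav3-2 SH arrays, against 9.08, 9.41 and 9.37 in the sav3-2 Wc arrays. AT1G15260 in sav1-1 read 8.32, 8.53 and 8.48 under SH and 9.14, 9.13 and 9.22 under Wc. AT1G15260 in Col-0 read 8.56, 8.26 and 8.53 under SH and 9.07, 9.22 and 9.07 under Wc. The lights were apart everywhere, with changes of -0.51, -0.72 and -0.67 in sav3-2, sav1-1 and Col-0 (SE 0.11 each). AT5G24570 was lower under SH in each same-numbered pair. AT5G24570 read 7.71, 7.73 and 8.35 in the sav3-2 SH arrays, against 8.37, 8.40 and 8.80 in the sav3-2 Wc arrays. AT5G24570 in sav1-1 read 7.40, 7.36 and 7.51 under SH and 8.23, 8.23 and 8.60 under Wc. AT5G24570 in Col-0 read 7.36, 7.43 and 8.10 under SH and 7.94, 8.25 and 8.60 under Wc. The Col-0 arrays overlapped because the SH array numbered 3 was above the Wc array numbered 1, and the changes were -0.59, -0.93 and -0.63 in sav3-2, sav1-1 and Col-0 (SE 0.20 each). AT2G17300 read 5.49, 5.23 and 5.83 in the sav3-2 SH arrays, against 6.07, 6.27 and 6.24 in the sav3-2 Wc arrays. AT2G17300 in sav1-1 read 5.44, 4.97 and 5.33 under SH and 5.78, 5.77 and 6.48 under Wc. AT2G17300 in Col-0 read 5.57, 5.62 and 5.58 under SH and 6.08, 6.47 and 6.51 under Wc. No overlap was seen in any genotype, with changes of -0.68, -0.76 and -0.76 in sav3-2, sav1-1 and Col-0 (SE 0.19 each).

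AT5G55620 averaged 9.14 under SH and 9.65 under Wc in sav3-2, 8.86 and 9.65 in sav1-1, and 9.05 and 9.64 in Col-0, with changes of -0.51, -0.80 and -0.58 (SE 0.18). AT5G06270 read 8.05, 7.89 and 8.06 in the sav3-2 SH arrays, against 8.56, 8.39 and 8.37 in the sav3-2 Wc arrays. AT5G06270 in sav1-1 read 7.56, 7.84 and 7.81 under SH and 8.28, 8.34 and 8.49 under Wc. AT5G06270 in Col-0 read 7.65, 7.93 and 7.92 under SH and 8.39, 8.48 and 8.54 under Wc. The changes of AT5G06270 were -0.44, -0.63 and -0.63 in sav3-2, sav1-1 and Col-0 (SE 0.11 each). AT4G33960 averaged 7.05 under SH and 7.60 under Wc in sav3-2, 6.95 and 7.74 in sav1-1, and 7.34 and 7.72 in Col-0, with changes of -0.54, -0.79 and -0.37 (SE 0.15). Of these, AT5G06270 showed no overlap of the lights in any genotype, and the others overlapped in sav3-2. AT2G19650, with a cysteine- and histidine-rich domain, averaged 6.74 under SH and 7.42 under Wc in sav3-2, 6.52 and 7.23 in sav1-1, and 6.74 and 7.11 in Col-0, with changes of -0.68, -0.70 and -0.36 (SE 0.15). AT3G22970 averaged 6.95 under SH and 7.73 under Wc in sav3-2, 7.32 and 7.82 in sav1-1, and 7.19 and 7.58 in Col-0, with changes of -0.78, -0.50 and -0.39 (SE 0.14). Both overlapped in Col-0 alone. AT1G13650 averaged 6.57 under SH and 7.02 under Wc in sav3-2, 6.75 and 7.19 in sav1-1, and 6.54 and 7.42 in Col-0, with changes of -0.45, -0.44 and -0.88 (SE 0.37), a wide SE, and its arrays overlapped in all 3 genotypes. The change of AT4G36500 averaged -0.48 and that of AT1G67910 -0.47. The average changes of the unnamed members ran from -0.998 to -0.45, with 249309_at, 260364_at and 265894_at the deepest.

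**Figure D4:**
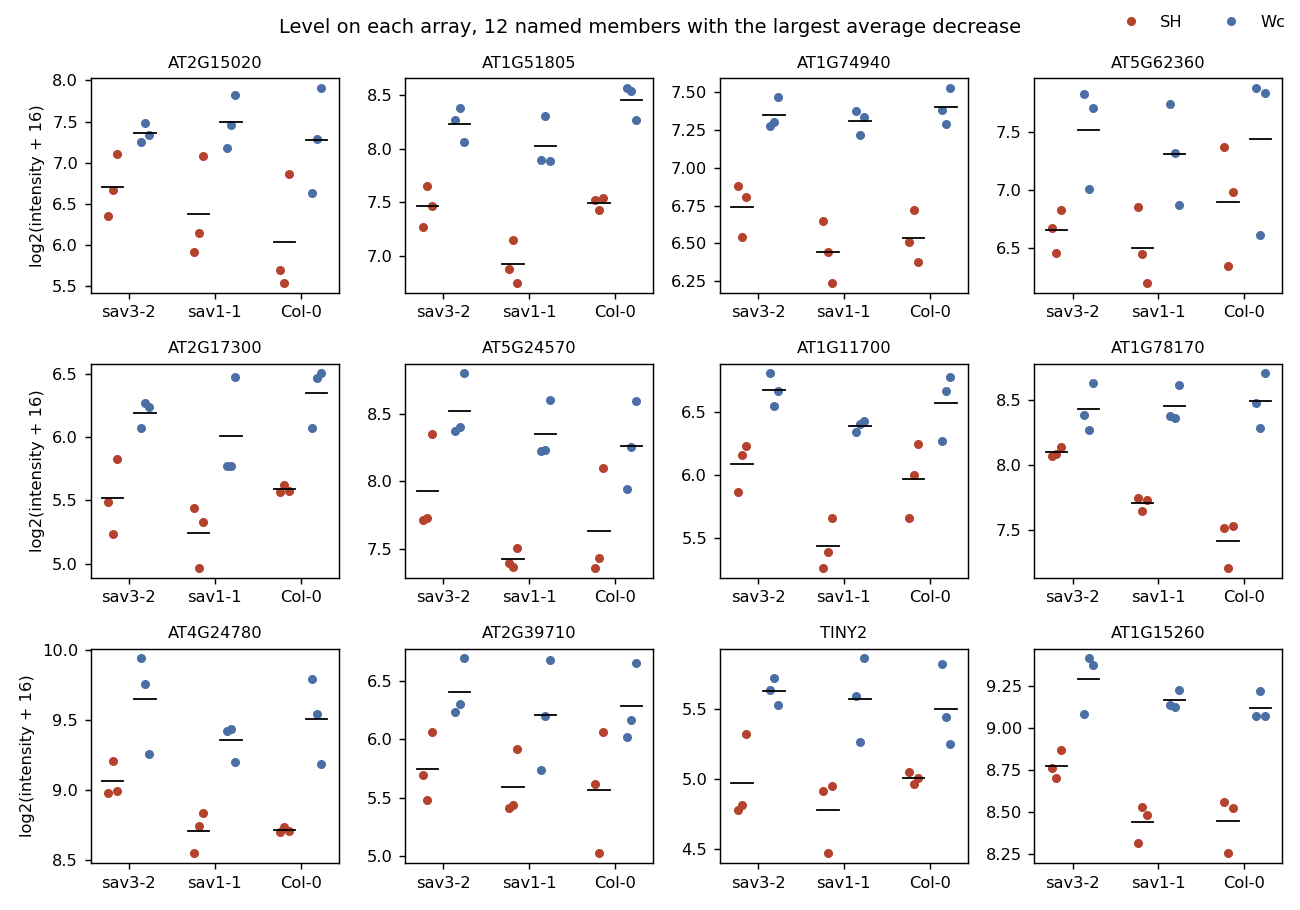
Level on each array (log2 scale, vertical axes that do not start at 0) of the 12 named members with the largest average decrease, with SH arrays left of Wc arrays in sav3-2, sav1-1 and Col-0. Points are arrays and bars the mean of 3; TINY2, AT1G51805 and AT1G74940 show no overlap of the lights in any genotype, and AT2G15020 overlaps in Col-0.

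Genotypes shared the decrease with some spread in size. The gap between the largest and the smallest of the 3 changes had a median of 0.25, and it was under 0.2 for 37 members and over 0.4 for 10. The deepest change was in sav3-2 for 24 members, in sav1-1 for 41 and in Col-0 for 32, and the smallest was in sav3-2 for 44, in sav1-1 for 17 and in Col-0 for 36. The widest gaps were those of 247252_at, at -1.10, -0.50 and -0.28 in sav3-2, sav1-1 and Col-0, and of AT1G78170. Since each change had to be -0.25 or less, the choice limits these gaps, and the differences in response were not tested.

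The level of each genotype averaged over both lights does not enter the differences that chose the members, so it was tested. The question was whether the members' overall level differed between genotypes. sav1-1 was below sav3-2 for most members: 76 of 97 were lower in sav1-1 (78.4%, beside 51.0% of all probe sets tested), the median difference was -0.17 (beside -0.0035 over all probe sets tested), and limma called 16 members (2.87% of all probe sets), with 15 lower (1.26% of all) and 1 higher (1.61% of all). All sav1-1 arrays lay below all sav3-2 arrays within both lights for 11 members (1.73% of all probe sets). These are 73.3% of the 15 called lower, a share near the 76.9% among all probe sets called lower. Against Col-0, 62 of 97 members were lower in sav1-1 (63.9%, beside 49.5% of all probe sets tested). The median difference was -0.04 (beside 0.0017 over all probe sets). On the values as deposited it turned to 0.0612, below the 0.11 of all probe sets, with no member called lower there. In the main fit limma called 5 members (1.54% of all), all of them lower (0.782% of all). None was called higher by limma (0.753% of all), where 24 members had an unadjusted p under 0.05 in either direction (24.7%, beside 12.1% of all probe sets). sav3-2 against Col-0 had a median of 0.10 (beside 0.0044 over all probe sets), with 69 of 97 higher in sav3-2 (71.1%, beside 51.3% of all). limma called 6 members there (2.25% of all), with 4 called higher (0.923% of all) and 2 lower (1.33% of all). With the replicate number as a block in the fit, members called higher and lower were 1 and 23 for sav1-1 against sav3-2, 1 and 7 for sav1-1 against Col-0, and 15 and 4 for sav3-2 against Col-0. These 3 comparisons share arrays and are not independent of each other.

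The named members called in these comparisons were 6. The PKS3 gene AT1G18810 averaged 7.20 in sav1-1 and 7.70 in sav3-2 over both lights, a difference of -0.51 (SE 0.11, limma adjusted p = 0.0108). The sav1-1 SH arrays lay below all sav3-2 SH arrays, and under Wc the genotypes overlapped at the sav3-2 array numbered 3. AT1G11700 averaged 5.91 in sav1-1 and 6.38 in sav3-2, a difference of -0.47 (SE 0.12, limma adjusted p = 0.027). AT1G64710 averaged 6.99 in sav1-1 and 7.43 in sav3-2, at -0.43 (SE 0.12, limma adjusted p = 0.0469). The NPH3-family gene AT3G22104 averaged 6.59 in sav1-1 and 6.95 in sav3-2, at -0.36 (SE 0.09, limma adjusted p = 0.0402). For the kinase AT1G54820 the averages were 7.56 in sav1-1 and 7.87 in sav3-2, at -0.32 (SE 0.08, limma adjusted p = 0.0242). The receptor-like kinase AT1G51805 averaged 7.48 in sav1-1, against 7.85 in sav3-2 and 7.98 in Col-0. Its differences were -0.37 (SE 0.10, limma adjusted p = 0.0427) from sav3-2 and -0.50 (SE 0.10, limma adjusted p = 0.00932) from Col-0. When each array was left out in turn, the sav1-1 against sav3-2 call of AT1G18810 held in all 18 fits, and the calls of AT1G11700, AT1G64710, AT1G51805, AT3G22104 and AT1G54820 were lost in 7, 12, 11, 9 and 3 fits. The AT1G51805 call against Col-0 held in all 18. Without sav3-2 SH replicate 2 or without sav1-1 SH replicate 1, the 15 members called lower in sav1-1 became 8 and 9. On the values as deposited, before normalization, 245265_at and 255503_at were the 2 members called lower, and none of the calls of these 6 named genes held.

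The widest difference of any member was in 245265_at, which is unnamed here. 245265_at read 7.76, 7.85 and 8.15 in the sav3-2 SH arrays, against 8.92, 8.81 and 8.33 in the sav3-2 Wc arrays. 245265_at in sav1-1 read 5.02, 5.11 and 5.75 under SH and 5.35, 6.06 and 6.17 under Wc. 245265_at in Col-0 read 4.97, 4.95 and 5.78 under SH and 5.48, 5.31 and 6.09 under Wc. All sav3-2 arrays were far above those of the other genotypes in both lights. The mean over both lights was 8.31 in sav3-2 and 5.43 in Col-0, a difference of 2.88 (SE 0.18, limma adjusted p = 1.39e-09), and sav1-1 at 5.58 differed from sav3-2 by -2.73 (SE 0.18, limma adjusted p = 3.9e-09). 255503_at was also highest in sav3-2. 255503_at read 7.01, 6.87 and 6.62 in the sav3-2 SH arrays, against 7.57, 7.48 and 7.19 in the sav3-2 Wc arrays. 255503_at in sav1-1 read 6.02, 6.10 and 5.95 under SH and 6.55, 6.48 and 6.64 under Wc. 255503_at in Col-0 read 6.20, 6.10 and 6.17 under SH and 6.87, 6.54 and 6.51 under Wc. Its differences were 0.72 (SE 0.09, limma adjusted p = 4.65e-05) between sav3-2 and Col-0 and -0.84 (SE 0.09, limma adjusted p = 7.21e-06) between sav1-1 and sav3-2.

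In 247252_at and 261226_at the mean of both mutants was below the wild type. 247252_at read 6.60, 6.56 and 6.27 in the sav3-2 SH arrays, against 7.61, 7.84 and 7.29 in the sav3-2 Wc arrays. 247252_at in sav1-1 read 6.84, 7.01 and 6.79 under SH and 7.11, 7.57 and 7.48 under Wc. 247252_at in Col-0 read 8.01, 7.59 and 7.70 under SH and 8.39, 8.07 and 7.67 under Wc. The Col-0 arrays were highest in both lights apart from the Wc array numbered 3. Its differences were -0.88 (SE 0.12, limma adjusted p = 0.000155) for sav3-2 and -0.77 (SE 0.12, limma adjusted p = 0.00152) for sav1-1 against Col-0. 261226_at read 6.79, 6.74 and 6.91 in the sav3-2 SH arrays, against 7.04, 7.47 and 7.01 in the sav3-2 Wc arrays. 261226_at in sav1-1 read 6.53, 6.26 and 6.43 under SH and 6.98, 7.10 and 6.96 under Wc. 261226_at in Col-0 read 7.22, 6.84 and 7.32 under SH and 8.23, 7.59 and 7.85 under Wc. Every sav1-1 array was below every Col-0 array of the same light, and sav3-2 overlapped Col-0 under SH. Its differences were -0.52 (SE 0.11, limma adjusted p = 0.0117) for sav3-2 and -0.80 (SE 0.11, limma adjusted p = 0.000456) for sav1-1 against Col-0. On the values as deposited both calls of 261226_at and the sav1-1 call of 247252_at were lost, and the sav3-2 call of 261226_at was also lost without the arrays numbered 3. Both comparisons use the same Col-0 arrays.

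The other unnamed members called lower in sav1-1 than in sav3-2 were 245901_at (-0.67), 257610_at (-0.55), 267165_at (-0.48), 252168_at (-0.43), 246986_at (-0.42), 245304_at (-0.39) and 265894_at (-0.26). 260364_at was the member called higher in sav1-1, at 0.49 (SE 0.13, limma adjusted p = 0.0401), a call that 10 of the 18 fits without 1 array did not keep. Against Col-0, 246986_at and 267165_at were higher in sav3-2 (0.39 and 0.42), each call lost in 3 of the 18 fits, and that of 246986_at also without the arrays numbered 3. Of the others, 245304_at and 266418_at were lower in sav1-1 (-0.41 and -0.42). On the values as deposited none of the calls in this group of members held. The call of 266418_at was lost in 8 of 18 such fits, and the sav1-1 against sav3-2 calls of 257610_at and 265894_at in 6 and 9. Members called higher in sav3-2 than in Col-0 were 2 without sav3-2 Wc replicate 2, and 7 without Col-0 SH replicate 3 or without Col-0 Wc replicate 3.

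**Figure D5:**
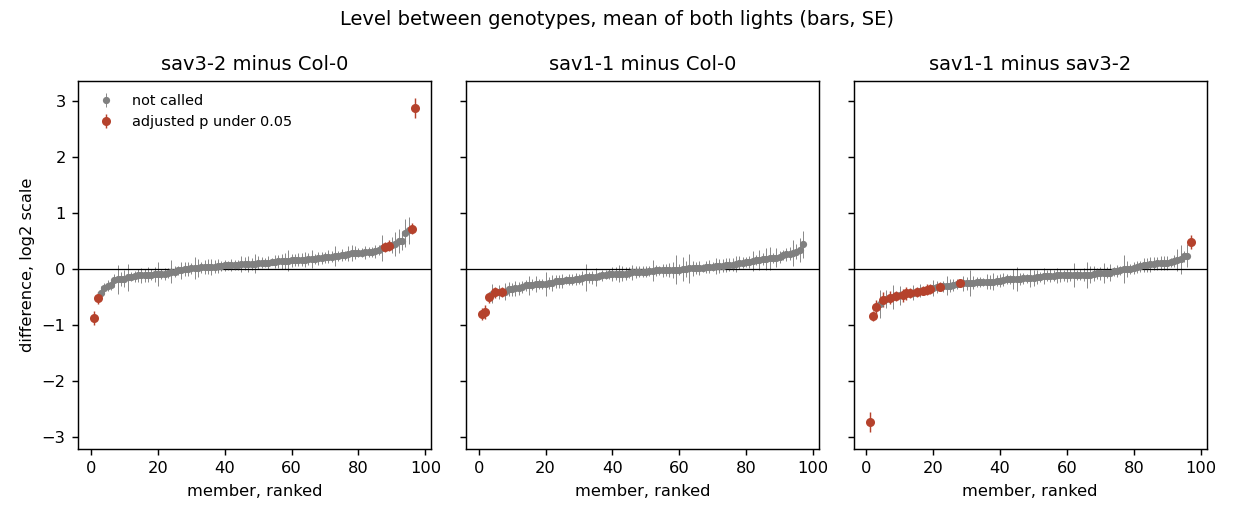
Difference in level between genotypes, averaged over both lights (log2 scale, vertical axis), of the 97 members, each panel ranked by its own values. Bars are SE and red points are members called by limma at an adjusted p under 0.05; in the right panel 15 are called lower in sav1-1 and 1 higher, and the far point in the outer panels is 245265_at.

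Genes of the lists set for light responses were mostly not measured, in that no probe set kept for testing carries their name. None is a member, although AT3G44450 met the numeric thresholds, with an average change of -0.89, and was set aside by name. Of 11 light-induced regulators 3 were measured. BIC2 (AT3G44450), an inhibitor of cryptochromes, passed the test as lower in sav1-1 and Col-0 (-1.12 and -0.86; SE 0.19 each) and stood at -0.69 in sav3-2 (limma adjusted p = 0.122). Its paralog BIC1 stood at -0.45 in sav3-2, -0.36 in sav1-1 and -0.38 in Col-0 (SE 0.17 each), short of the average the members had to meet, and passed in none. HYH, a bZIP factor related to HY5, had an average change of -0.15 and did not pass either. With 3 genes measured, the list's median of -0.45 in sav3-2, -0.36 in sav1-1 and -0.38 in Col-0 is the value of BIC1 itself. It does not describe the 11 genes.

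Measured genes of the photosynthetic apparatus lay near 0. The changes of LHCB4.1 and LHCB4.2 averaged 0.02 and 0.03, and that of PORB, an enzyme of chlorophyll synthesis, averaged -0.08. Neither the 2 measured of 17 light-harvesting and Rubisco genes nor the 1 of 8 chlorophyll synthesis genes passed the test. Also short of the test were DFR of flavonoid synthesis (-0.01 on average), the clock gene GI (0.09) and the cytokinin response regulators ARR15 (0.27) and ARR16 (0.05), the only measured members of lists of 6, 12 and 9 genes. No photoreceptor or PIF gene of the 17 listed was measured. The shade-raised markers went the other way: all 3 measured of 14 (HAT2, IAA29 and XTH33) rose in sav1-1 and in Col-0, and 2 in sav3-2, where XTH33 stood at 0.43.

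The members were also compared in features that the choice did not use. After the mean of its group was taken from each value, the mean correlation between members over the 18 arrays was 0.024, beside 0.00024 over all probe sets tested. The share of that remaining variation that lay between replicate numbers had a median of 30.2% in members and 21.3% in all. The 48 named genes lie on all 5 chromosomes, with 18, 8, 5, 6 and 11 on chromosomes 1 to 5. Chromosome 1 held 37.5% of them and 25.8% of all named genes, and chromosome 3 held 10.4% and 20.6%. No 2 of the named genes lie within 10 loci of each other in the gene table.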

How the data were processed

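RNA of whole seedlings was measured on 18 arrays, 3 in each of 6 groups, named from their titles. Intensity values on a linear scale were deposited for each probe set. GCRMA was used per the submitters' processing notes, which give no version or settings. Since the array medians differ, the values were quantile normalized here after 64 control probe sets were left out. This step removes a shift shared by most genes. Centring of the deposited values is otherwise unknown. Levels are log2(intensity + 16) of the deposited values after this step, which understates changes of dim genes.

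Probe sets with log2 intensity over 4 on 3 or more of the 18 arrays were tested (17125 of 22746). limma 3.58.1 under R 4.3.3 fitted the 6 group means together (lmFit, eBayes with an intensity trend), with Benjamini-Hochberg adjustment over all probe sets tested and two-sided tests. The code was run on simulated data with independent noise on each array. That simulation held no correlation by replicate number, so it cannot tell whether a block is needed. The members were tested on the 3 genotype differences in the mean of both lights; low R:FR against white light within each genotype came from the same fit, and its calls serve the background counts and the gene lists. Replicate numbers pair the arrays only in part: within a light, the lowest same-number correlation of deviations from group means was 0.101 for sav3-2 with Col-0, 0.127 for sav1-1 with sav3-2 and 0.0963 for sav1-1 with Col-0, so the fit has no block and counts with it are given beside the results. The number of arrays limits the precision, and no detection calls were used.

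Gene names came from the platform annotation and a gene table of TAIR10.1, used for names and order only: 13513 probe sets name 1 gene, 503 several and 8730 none, and 13436 of the first matched by gene ID. The members, lists and tests were chosen with earlier results of these data known. Values on every array were given for the 12 named members with the largest average decrease, for named members called between genotypes and for 4 unnamed ones, with other called members by their differences; group values were given for the next 18, and array values for AT5G06270 among them. Roles are background knowledge. Promoter motifs, foreseen in the plan, were not analysed here, since no sequence was used. Alternatives were other normalizations, a pseudocount of 1, no filter, the replicate number as a block, and arrays left out.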

Additional observations from a re-analysis of the deposited data

How the results depend on the processing

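Under every normalization, pseudocount and array left out that was tried, all 97 members stayed below 0 in all 3 genotypes. The choice used these same arrays, which largely fixed that outcome, so nothing is read from it. The rule chose 73 probe sets on the values as deposited and 91 after median scaling, all of them members, 140 with a pseudocount of 1 (of which 95 are members), 127 without the arrays numbered 3 (80 members) and 88 to 108 with 1 array left out. As deposited, where all probe sets had a median of 0.11 in sav3-2, 0.06 in sav1-1 and -0.16 in Col-0, the members' medians were -0.40, -0.54 and -0.70. They were -0.69 in sav1-1 and -0.62 in Col-0 with a pseudocount of 1, and -0.61 in Col-0 without the arrays numbered 3. With 1 array left out they ran from -0.59 to -0.51 in sav3-2, -0.65 to -0.60 in sav1-1 and -0.59 to -0.53 in Col-0. The reading on arrays not used to choose gave 34.2% with number 1 left out and 42.3% with number 3 left out on values as deposited (an alternative added after the data were seen).

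The genotype calls depended on the processing, and the cause was not tested. As deposited, limma called 166, 115 and 224 probe sets for sav3-2 against Col-0, sav1-1 against Col-0 and sav1-1 against sav3-2, where the main counts were 386, 263 and 492. Members called higher and lower there were 2 and 1, 0 and 0, and 0 and 2. The members' median for sav1-1 against Col-0 turned to 0.0612, below the 0.11 of all probe sets. Same-numbered deviations correlated above 0 in all 45 cases and at 0.1 or less in 11, 10 of these between the lights, and an array correlated best with its own number in 79 of 90 comparisons with another group. Under the replicate block the 3 counts of all probe sets called became 779, 577 and 851, and members higher and lower were 15 and 4, 1 and 7, and 1 and 23. Without the arrays numbered 3, 11 members were higher in sav3-2 and 1 in sav1-1 against Col-0. With a pseudocount of 1 or no filter, 0 members were higher in sav1-1 than in sav3-2. With 1 array left out, all calls ran from 283 to 411, 148 to 290 and 341 to 524, members higher from 2 to 7 and 0 to 1 in the first and the last and none in the other, and members lower from 2 to 3, 4 to 5 and 8 to 17. The count for sav1-1 against Col-0 was 148 to 173 without sav1-1 SH replicate 2 or 3, sav1-1 Wc replicate 2 or 3, Col-0 SH replicate 1 or 2 or Col-0 Wc replicate 2. The medians over members ran from 0.09 to 0.13, -0.08 to -0.02 and -0.18 to -0.13 in the same order.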
